A study of Bos taurus with 12 samples.

Results

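The clade B serpins are the intracellular branch of the serpin family of protease inhibitors, and 7 of them were followed in epithelial cells of the bovine oviduct: SERPINB1, SERPINB2, SERPINB5, SERPINB6, SERPINB8, SERPINB9 and SERPINB12. They are 7 of 18010 genes that the platform names by 1 symbol, and were read on 9 of its 18457 single-symbol probesets. SERPINB1 and SERPINB12 each had 2 probesets, and the one with the highest mean over the 12 arrays was used, so the probesets were selected on measured signal (9.32 against 9.17 for SERPINB1, and 7.29 against 6.20 for SERPINB12, on the log2 scale). The platform names 3 other genes by 1 SERPINB symbol each, SERPINB4, SERPINB7 and SERPINB10, which serve here as the comparison.

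RNA from epithelial cells of the ampulla and of the isthmus, taken from the same oviduct of 6 normally cycling Angus heifers, was hybridized to 12 Bovine Gene 1.0 ST arrays. The 3 heifers of the follicular phase (FP) had been given 25 mg PGF2α on day 6 and were killed 36 h later. The 3 heifers of the luteal phase (LP), for which no treatment is stated, were killed on day 11 or 12. Days are counted from ovulation in the labels and from estrus in the methods of the study. The oviduct was the one beside the preovulatory follicle (FP) or the corpus luteum (LP), and the cells were squeezed out of the tissue. The 4 groups of 3 arrays were thus FP ampulla, LP ampulla, FP isthmus and LP isthmus, and the FP stands for a follicular phase induced with PGF2α, not a spontaneous one.

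A serpin offers its reactive center loop to a protease as bait, and when the loop is cut the serpin folds over and traps the enzyme in a covalent complex. Clade B members lack a classical signal peptide and mostly act inside the cell or after release, where they guard epithelia and leukocytes against their own granule and lysosomal proteases. The roles given below are known from human and mouse proteins. They include inhibitors of trypsin-like enzymes (SERPINB12), of neutrophil proteases and granzyme B (SERPINB1, SERPINB6, SERPINB9), of furin (SERPINB8) and of plasminogen activators (SERPINB2), while SERPINB5 (maspin) inhibits no protease.

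The arrays were closely matched, with medians of 7.33 to 7.40 and lower quartiles of 5.68 to 5.82 on the log2 scale. Markers of epithelium were at a mean signal of 9.97 to 10.30 and those of ciliated cells at 11.12 to 11.64 on every array, so the labelled cell type was present in each. Markers of T and NK cells were at 6.10 to 6.54 on the FP arrays and 6.76 to 8.12 on the LP arrays, and 4 of 13 passed the test as lower in the FP ampulla and 2 of 13 in the FP isthmus. Of all probesets, 7.82% passed between the phases of the ampulla and 8.44% in the isthmus, in either direction. Markers of fibroblasts ranged from 6.91 to 7.50 in the ampulla and from 7.60 to 9.31 in the isthmus. In whole samples, fewer cells of a type and less RNA per cell cannot be told apart. The animal numbers of the labels matched the ampulla and the isthmus of the LP heifers in the data (correlation of deviations from the group means 0.22 to 0.37) but not those of the FP heifers (-0.17 to -0.05), and the reason was not tested. Below, a heifer left out or used as a block means both arrays that share an animal number in the labels. In the FP these arrays may not come from the same animal.

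The genes lie in 3 places on the ARS-UCD2.0 assembly. SERPINB6 (chr23:50735234-50749416), SERPINB9 (chr23:50784498-50793489) and SERPINB1 (chr23:50820715-50829831) form a cluster on chromosome 23. SERPINB8 (chr24:12393110-12415022) stands apart on chromosome 24. SERPINB5 (chr24:61730325-61756178), SERPINB12 (chr24:61793189-61839339) and SERPINB2 (chr24:62075443-62093177) belong to a second cluster on chromosome 24, which also holds SERPINB7 and SERPINB10.

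**Figure D1:**
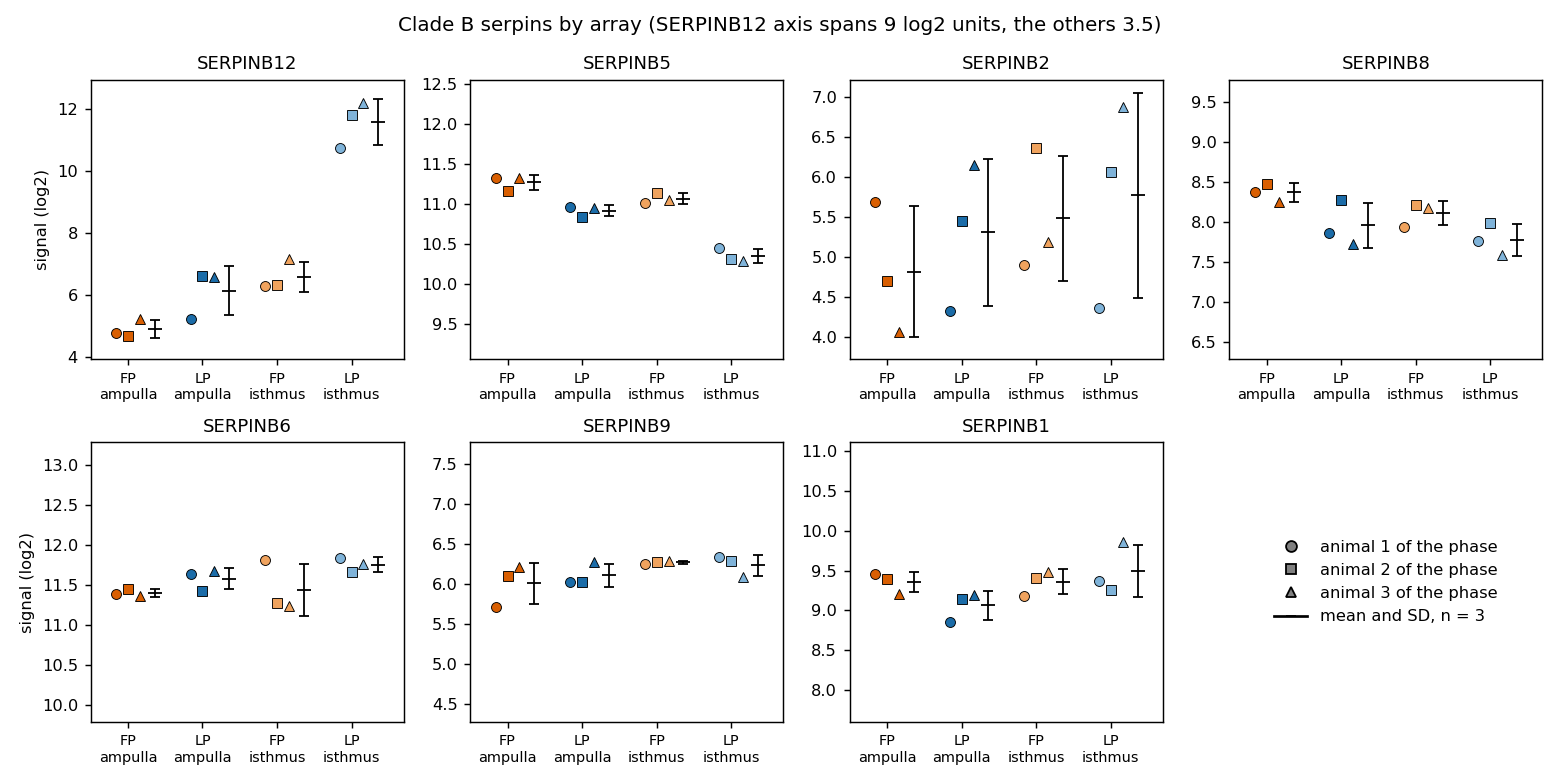
Signal (log2) of the 7 clade B serpins on each of the 12 arrays in the 4 groups, with the mean and SD of 3 arrays per group as a black bar. SERPINB12 stood at 10.74 to 12.18 in the LP isthmus and at 7.14 or lower on all other arrays, and its axis is wider than those of the other genes.

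SERPINB12, an inhibitor of trypsin-like serine proteases, had its highest signal in the luteal isthmus. Its signal on the log2 scale was 10.74, 11.79 and 12.18 on the LP isthmus arrays (11.57 ± 0.75, SD, n = 3) and 6.28, 6.30 and 7.14 on the FP isthmus arrays (6.57 ± 0.49). In the ampulla it was 5.21, 6.62 and 6.57 in the LP (6.13 ± 0.80) and 4.78, 4.67 and 5.22 in the FP (4.89 ± 0.29). The 3 LP isthmus arrays stood above all others by at least 3.60, whereas LP ampulla and FP isthmus overlapped, and the LP and FP ampulla met within 0.01.

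The phase difference of SERPINB12 (FP minus LP) was -5.00 (SE 0.44) in the isthmus, a 32.0-fold lower signal in the FP, and -1.24 (SE 0.44) in the ampulla, and the difference of these phase differences was -3.76 (SE 0.62). Between the tissues (isthmus minus ampulla) it was 5.44 in the LP and 1.68 in the FP. Because SERPINB12 was singled out with its pattern known, these are descriptions with no test. Leaving out each heifer or array in turn, the isthmus difference ranged from -5.42 to -4.69, and the ampulla difference stayed negative and reached -1.70. The FP ampulla values lie below the lower quartile of every array.

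The other SERPINB12 probeset, which the platform names without a gene ID, varied less. It was at 6.45, 7.49 and 7.11 for LP isthmus and at 6.24, 6.14 and 6.19 for FP isthmus, a difference of -0.83 (SE 0.22). In the ampulla it was at 5.64, 5.99 and 5.64 in the LP and at 6.08, 5.77 and 5.70 in the FP, and the difference was 0.09 (SE 0.22). The LP isthmus was thus again the highest group, without overlap, but by a smaller step, and the ampulla showed no such step. The correlation of the probesets over the 12 arrays was 0.89. Where the chosen probeset is replaced by the mean of both, SERPINB12 stood at 9.29 for LP isthmus and 5.37 for FP ampulla.

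Cell markers also differed between the groups. The mean of the T and NK cell markers was higher on every LP array than on any FP array, at 6.76 to 8.12 in the LP ampulla and 6.78 to 7.74 in the LP isthmus. The mean of the 7 fibroblast markers was 8.35 to 9.31 in the FP isthmus and 7.60 to 9.20 in the LP isthmus. Of these 7, limma called 1 between the phases of the isthmus, against 8.44% of all probesets. Their median phase difference there was 0.42, toward the FP. The called gene FBLN1, an extracellular matrix protein, went the other way and fell in the FP isthmus (-1.07, SE 0.24, limma adjusted p = 0.013). Its LP means were 10.95 in the isthmus and 8.45 in the ampulla (limma adjusted p = 0.000152). Of 6 smooth muscle markers, with a median phase difference of -0.05 in the isthmus, limma called 1 there, the myosin heavy chain MYH11. MYH11 fell in the FP isthmus and was higher in the LP isthmus than the LP ampulla (-1.01, SE 0.16, limma adjusted p = 0.00221, and 1.36 between the LP tissues).

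The mean of 10 markers of basal and squamous epithelium ranged from 6.30 to 6.68 over all 12 arrays, and TP63, the defining factor of basal cells, was at group means of 5.29 to 5.37, under the lower quartile of the arrays. The desmosomal cadherin DSG3 of this list had its group means in the order of SERPINB12, at 7.16 in the LP isthmus, 6.07 in the FP isthmus, 5.35 in the LP ampulla and 5.09 in the FP ampulla. DSG3 fell in the FP isthmus (-1.10, SE 0.14, limma adjusted p = 0.000882) and was 1.82 higher in the isthmus than in the ampulla of the LP (limma adjusted p = 4.96e-05). The keratin KRT5 rose in the FP of both tissues (0.64 in the ampulla and 1.18 in the isthmus). The part of these cells in the SERPINB12 difference was not tested.

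The 5 genes whose pattern over the 12 arrays was most like that of SERPINB12, by Pearson correlation, were NUMB, PRRG1, KLF17, AKAP5 and ATF7 (r = 0.97 to 0.98). They were picked for their likeness to SERPINB12, so the highest group mean in the LP isthmus, seen for each, is no separate result. KLF17, a zinc finger transcription factor, was at 10.49 there and at 5.83 to 6.86 in the other groups. AKAP5, a scaffold for protein kinase A, was at 8.29 there and at 5.80 to 6.37 elsewhere, and NUMB, a cell fate adaptor protein, at 11.20 against 10.31 to 10.59. The 12 points share their arrays, and the correlations are descriptions.

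SERPINB5, an abundant product of epithelial cells known as maspin, ran the opposite way. It was at 11.32, 11.16 and 11.33 for FP ampulla (11.27 ± 0.09), 11.01, 11.14 and 11.05 for FP isthmus (11.07 ± 0.07), 10.96, 10.84 and 10.95 for LP ampulla (10.92 ± 0.07) and 10.45, 10.31 and 10.29 for LP isthmus (10.35 ± 0.09). No 2 groups that differ in phase or tissue alone overlapped, and the LP isthmus was the lowest. In the isthmus SERPINB5 rose in the FP by 0.72 (SE 0.08), a 1.64-fold change (adjusted p = 0.000479, limma with Benjamini-Hochberg adjustment over all probesets). It passed in each of the 18 fits that left out a heifer or an array.

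In the ampulla the FP to LP difference of SERPINB5 was 0.35 (SE 0.08, limma adjusted p = 0.016), which is 1.28-fold and under the 1.5-fold required of a differentially expressed gene (DEG). With a heifer or array left out, the adjusted p of this difference went up to 0.0739 (without FP heifer 1). The difference between the phase effects was 0.36 (SE 0.12, limma adjusted p = 0.337). Between the tissues of the LP, SERPINB5 was -0.57 in the isthmus relative to the ampulla (SE 0.08, limma adjusted p = 0.00171), at 1.48-fold just short of the minimum, and it passed in 4 of the 18 fits with a heifer or array left out (LP heifer 1, LP heifer 2, LP ampulla array 2 or LP isthmus array 1), with differences of -0.62 to -0.59. The tissue difference in the FP was -0.20 (SE 0.08, limma adjusted p = 0.23).

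Over the 12 arrays SERPINB5 and its neighbor SERPINB12 had a correlation of -0.95, the lowest of the 21 pairs among the 7 genes, which otherwise ranged up to 0.70. The genes most like SERPINB5 were ST3GAL5, a ganglioside sialyltransferase, and METAP2, which removes the initial methionine of proteins (r = 0.98 each).

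**Figure D2:**
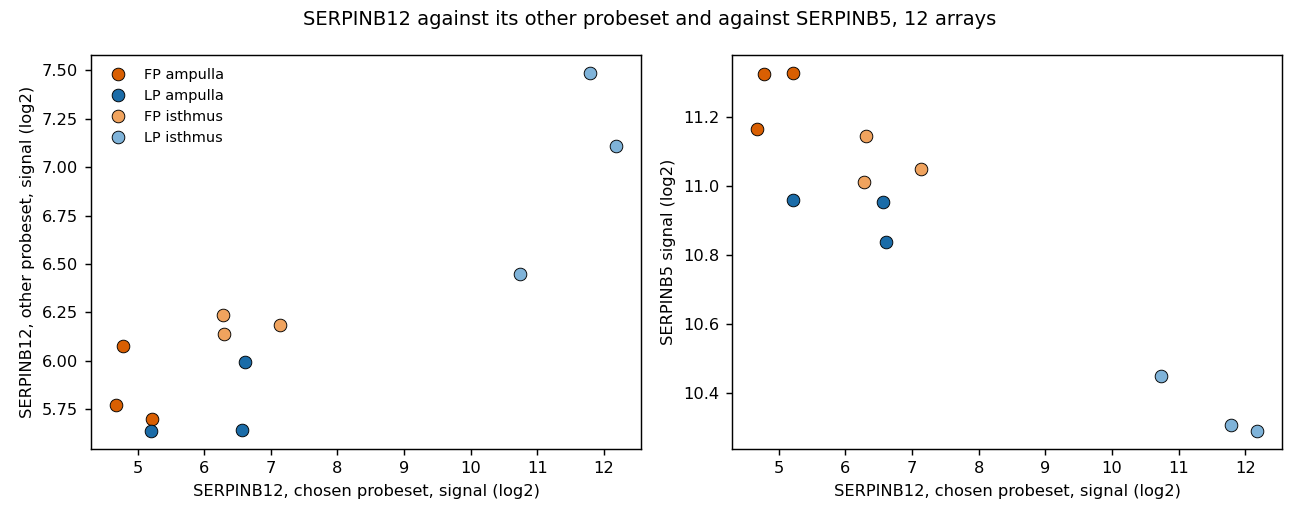
SERPINB12 signal (log2) on the chosen probeset against its other probeset (left) and against SERPINB5 (right), 1 point per array, colored by group. The 3 LP isthmus arrays lie apart at 10.74 or higher, with the other probeset at 6.45 or higher and SERPINB5 at 10.45 or lower.

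None of the 3 inhibitors of leukocyte proteases passed the test in any comparison. SERPINB1, an inhibitor of neutrophil elastase, cathepsin G and proteinase 3, was at 9.46, 9.40 and 9.21 for FP ampulla and 8.85, 9.14 and 9.20 for LP ampulla, which did not overlap but came within 0.01. In the isthmus it was at 9.18, 9.41 and 9.48 in the FP and 9.37, 9.26 and 9.86 in the LP, with overlap. The limma phase difference was 0.29 (SE 0.16, adjusted p = 0.263) in the ampulla and -0.14 (SE 0.16, adjusted p = 0.636) in the isthmus. SERPINB1 was 0.43 higher in the isthmus than in the ampulla of the LP (SE 0.16, limma adjusted p = 0.118) and 0.00 apart in the FP, and its other probeset (r = 0.90) gave 0.25 and -0.08 for the phases.

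SERPINB6, which inhibits cathepsin G and trypsin-like proteases, kept to a narrow range of 11.23 to 11.84. It was at 11.38, 11.45 and 11.36 for FP ampulla against 11.64, 11.43 and 11.68 for LP ampulla, and at 11.81, 11.28 and 11.23 for FP isthmus against 11.84, 11.66 and 11.76 for LP isthmus. The phases overlapped in both tissues, since LP ampulla array 2 and FP isthmus array 1 lay on the other phase's side. The limma differences were -0.18 (SE 0.14, adjusted p = 0.451) and -0.32 (SE 0.14, adjusted p = 0.17).

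SERPINB9, the inhibitor by which cells that release or meet granzyme B protect themselves, varied over the 12 arrays only from 5.71 to 6.33, close to the lower quartile of the arrays. It was at 5.71, 6.10 and 6.21 for FP ampulla, 6.02, 6.03 and 6.27 for LP ampulla, 6.25, 6.27 and 6.28 for FP isthmus and 6.33, 6.29 and 6.08 for LP isthmus. The phases overlapped in both tissues, with differences of -0.10 (SE 0.13, limma adjusted p = 0.685) and 0.04 (SE 0.13, limma adjusted p = 0.896). Beside it, the 13 T and NK cell markers had a median phase difference of -0.98 in the ampulla and -0.86 in the isthmus, and the part of such cells in the SERPINB9 signal was not tested.

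SERPINB8, an inhibitor of the proprotein convertase furin, was at 8.38, 8.48 and 8.25 for FP ampulla against 7.87, 8.28 and 7.73 for LP ampulla, and at 7.94, 8.22 and 8.18 for FP isthmus against 7.77, 7.98 and 7.59 for LP isthmus. The FP was the higher phase on average in both tissues, but 1 array of each comparison crossed over. The differences of 0.41 (SE 0.15, limma adjusted p = 0.0962) and 0.33 (SE 0.15, limma adjusted p = 0.176) did not pass. FURIN itself differed by -0.01 in the ampulla and -0.22 in the isthmus.

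SERPINB2, known as plasminogen activator inhibitor 2, varied widely within each group. It was at 5.69, 4.69 and 4.06 for FP ampulla, 4.32, 5.44 and 6.15 for LP ampulla, 4.89, 6.36 and 5.18 for FP isthmus and 4.36, 6.07 and 6.88 for LP isthmus. All groups overlapped. In the LP, animal 1 was the lowest and animal 3 the highest in both tissues, and in the FP the high arrays were ampulla 1 and isthmus 2. The phase differences were -0.49 (SE 0.69, limma adjusted p = 0.71) in the ampulla and -0.29 (SE 0.69, limma adjusted p = 0.836) in the isthmus, and the mean of SERPINB2 over all arrays (5.34) was below the lower quartile of all probesets (5.79).

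Within each group the same array was highest for SERPINB10, a serpin of blood-forming cells and the next gene on the chromosome (r = 0.94 with SERPINB2). SERPINB10 was at 6.76, 4.76 and 4.20 for FP ampulla, 4.50, 7.05 and 8.91 for LP ampulla, 5.10, 7.95 and 4.59 for FP isthmus and 4.93, 7.68 and 8.75 for LP isthmus. It spanned 4.70 log2 units with no group effect that passed (limma adjusted p of 0.485 and 0.595 between the phases). Among single-symbol genes with a mean signal above the lower quartile of all probesets, LOC515578 was the only one closer to SERPINB2 (r = 0.95).

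**Figure D3:**
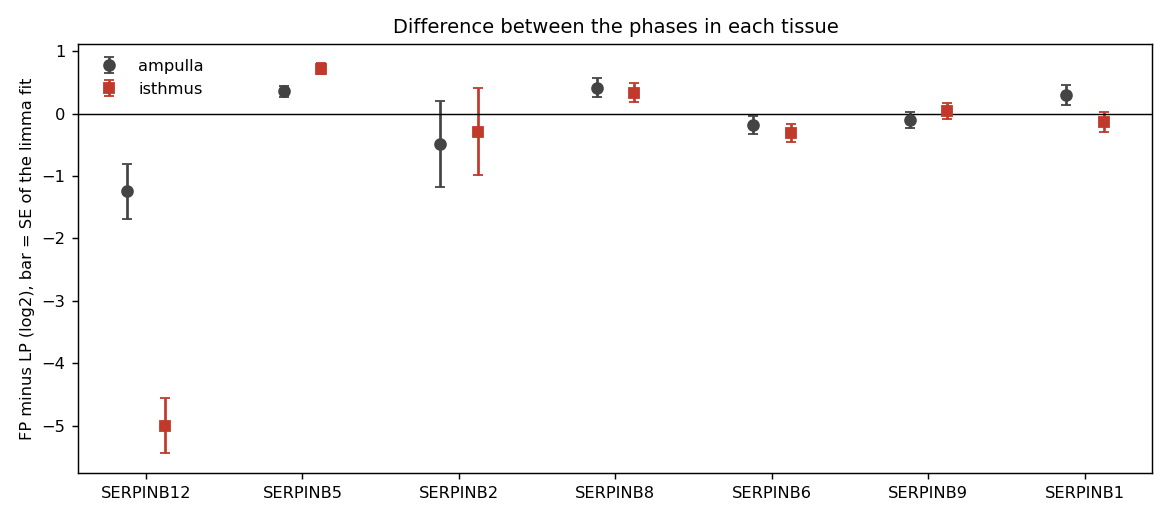
Difference between the phases (FP minus LP, log2) of the 7 clade B serpins in the ampulla (circles) and the isthmus (squares), with the SE of the limma fit as bars. SERPINB12 in the isthmus (-5.00) lies far below the other values, which run from -1.24 to 0.72.

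Over the 6 tested members, that is without SERPINB12, limma called 1 as a DEG between the phases of the isthmus (SERPINB5, higher in the FP), against 8.44% of all 26773 probesets in either direction and 4.40% in the higher direction. In the ampulla it called 0 of 6, against 7.82%, with SERPINB5 and SERPINB8 at an unadjusted p under 0.05. For the difference of the phase effects it called 0 of 6, against 0.153% of all probesets (41, or 19 with heifer as a fixed block), with SERPINB5 at an unadjusted p under 0.05. Between the tissues it called 0 of 6 in the LP, against 6.99%, and 0 of 6 in the FP, against 2.35%, where 2 members (SERPINB1 and SERPINB5) and 1 member (SERPINB5) had an unadjusted p under 0.05. SERPINB5 missed only the minimum fold in the ampulla (limma adjusted p = 0.016) and between the LP tissues (limma adjusted p = 0.00171). The F-test with LSD contrasts gave the same counts except for the difference of the phase effects, where it called SERPINB5 on an unadjusted p of the contrast. With so few genes, nothing particular to the members is read from these counts.

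Of all 7 members, the phases did not overlap for 2 in the ampulla (SERPINB1 and SERPINB5), against 35.5% of all probesets, and for 2 in the isthmus (SERPINB5 and SERPINB12), against 34.2%. The tissues did not overlap for 3 members in the LP (SERPINB1, SERPINB5 and SERPINB12), against 29.5%, and for 4 in the FP (SERPINB5, SERPINB8, SERPINB9 and SERPINB12), against 25.0%. In the FP the gaps between the tissues were only 0.02 for SERPINB5, 0.03 for SERPINB8 and 0.04 for SERPINB9. Their tissue differences did not pass there (limma adjusted p = 0.23, 0.418 and 0.33). The median phase difference of the 7 was -0.10 in the ampulla and -0.14 in the isthmus, beside -0.03 and -0.01 for all probesets. SERPINB12 is included here although it was singled out with its pattern known. With this and so few genes, nothing particular to the members is read from these counts and medians.

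Near SERPINB12 on chromosome 24, SERPINB7 and LOC522479 were also highest in the LP isthmus. SERPINB7 (megsin), known from kidney mesangium and epidermis, was at 8.56, 9.34 and 10.54 for LP isthmus, 7.20, 8.42 and 6.99 for FP isthmus, 4.05, 4.61 and 6.54 for LP ampulla and 5.92, 4.75 and 5.60 for FP ampulla. Both isthmus groups stood above both ampulla groups, and in the isthmus the LP stood above the FP by 0.13. In the LP SERPINB7 was 4.41 higher in the isthmus than in the ampulla (SE 0.68, limma adjusted p = 0.00225), and this passed in all 18 fits with a heifer or array left out. The tissue difference in the FP was 2.12 (SE 0.68, limma adjusted p = 0.136), and the phase difference in the isthmus was -1.94 (SE 0.68, limma adjusted p = 0.0772). The phase difference passed without LP heifer 1 (adjusted p = 0.048) or LP ampulla array 3 (adjusted p = 0.0357), and the tissue difference in the FP passed without LP heifer 3 (adjusted p = 0.0434).

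LOC522479 (chr24:62020311-62040285), a protein-coding gene between SERPINB7 and SERPINB2, carries no SERPINB symbol but is annotated in the study as ovalbumin-like, and ovalbumin-type serpins are those of clade B. Its group means followed the order of SERPINB7. It was at 11.10, 12.02 and 11.98 for LP isthmus, 9.14, 9.81 and 8.72 for FP isthmus, 5.38, 5.78 and 6.05 for LP ampulla and 6.90, 6.40 and 6.11 for FP ampulla. No groups overlapped. Its phase difference in the isthmus was -2.48 (SE 0.33, limma adjusted p = 0.000982), and it was higher in the isthmus than in the ampulla by 5.96 in the LP (adjusted p = 7.04e-06) and by 2.75 in the FP (adjusted p = 0.00192), each passing in all 18 fits with a heifer or array left out. In the ampulla the phase difference was 0.73 (limma adjusted p = 0.167). The phase effects of LOC522479 differed by -3.21 between the tissues (SE 0.47, limma adjusted p = 0.0349, and 0.035 with heifer as a fixed block). That call held without LP heifer 1, FP isthmus array 2 or LP isthmus array 1 and was lost in the other 15 of the 18 fits, at adjusted p of up to 0.178.

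Over the 12 arrays, SERPINB7 and LOC522479 had a correlation of 0.95 with each other and of 0.85 and 0.86 with SERPINB12. In the FP the isthmus exceeded the ampulla by 2.12 for SERPINB7, 2.75 for LOC522479 and 1.68 for SERPINB12. Between SERPINB12 and SERPINB7 the platform names LOC786348, LOC519132 and LOC511106 by 1 symbol each, and these varied by 0.61, 0.44 and 0.66 over all arrays. LOC786348 passed in no comparison. The protein-coding genes LOC511695, LOC100337223 and SERPINB11 also lie there but have no single-symbol probeset, so that part of the interval was not read. SERPINB5, before SERPINB12, was lowest in the LP isthmus, and SERPINB2 and SERPINB10, beyond LOC522479, overlapped between all groups.

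**Figure D4:**
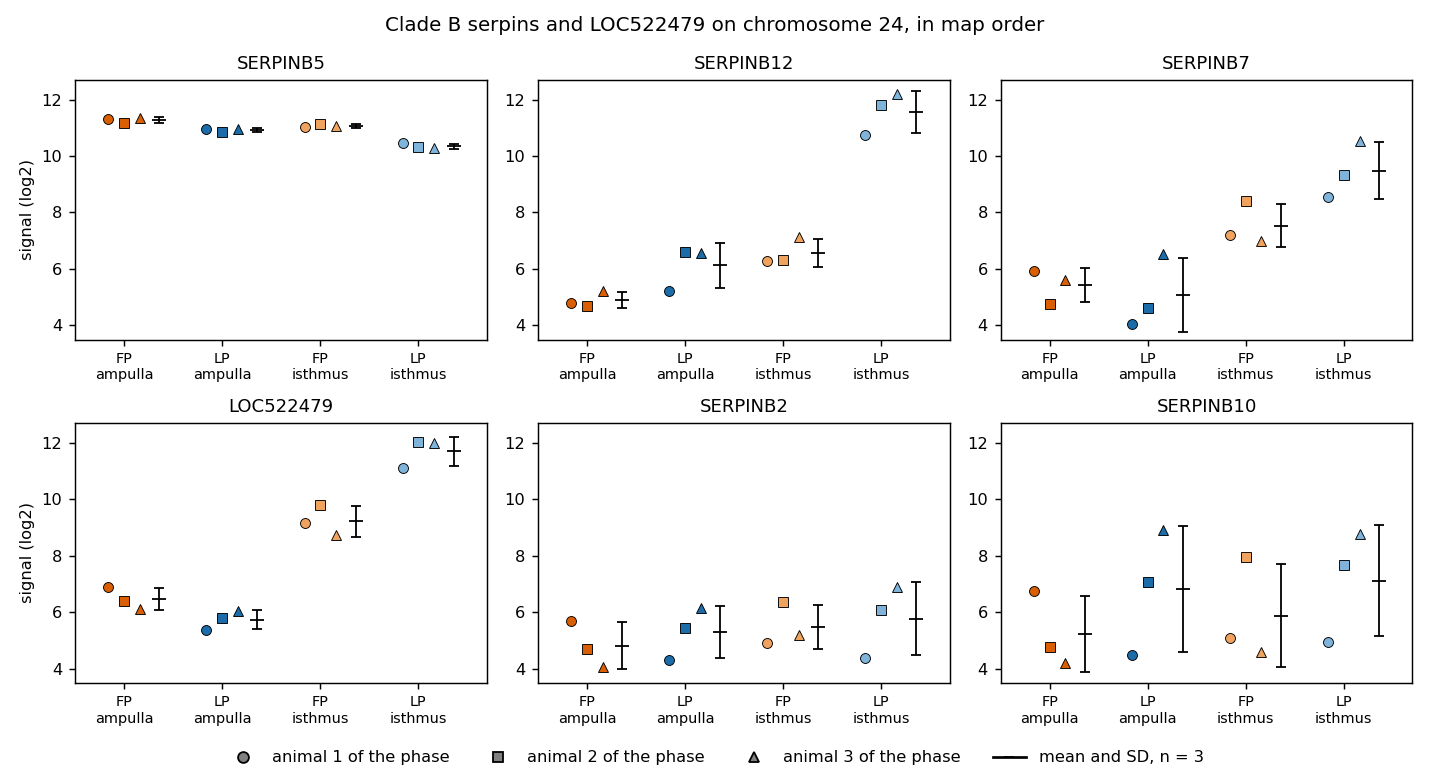
Signal (log2) of the clade B serpins on chromosome 24 from SERPINB5 to SERPINB10 and of LOC522479 by group, in map order on a shared axis, with the mean and SD of 3 arrays as black bars. SERPINB12, SERPINB7 and LOC522479 were highest in the LP isthmus, SERPINB5 was lowest there, and SERPINB2 and SERPINB10 varied between animals within each group.

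SERPINB4, an inhibitor of cathepsin G and chymase in human cells, is unplaced on the assembly and was read on its brighter probeset, at 5.19 to 5.88 on all arrays. Its phase difference in the ampulla was -0.40 (SE 0.11, limma adjusted p = 0.033), without overlap but under 1.5-fold. Its signal was close to the arrays' lower quartile, and its other probeset (r = 0.37) gave -0.23 with overlap.

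Of the 15 measured genes that lie within 3 protein-coding genes of a member and carry no SERPINB symbol, LOC522479 included, 4 were DEGs between the phases of the isthmus, 2 in each direction. The share of all probesets called there was 8.44%. In the ampulla 1 of the 15 rose and 1 fell, against 7.82% of all probesets. BCL2, the inhibitor of apoptosis located before the chromosome 24 cluster, fell in the FP of both tissues, with differences of -1.11 in the ampulla (SE 0.17, limma adjusted p = 0.0019) and -1.15 in the isthmus (SE 0.17, limma adjusted p = 0.00152). KDSR and VPS4B, which lie between BCL2 and SERPINB5, did not pass, with differences of -0.22 to 0.03. GMDS, an enzyme of fucose synthesis beyond SERPINB1, rose in both tissues (0.81 and 0.66), although its isthmus call was lost without FP heifer 2 or 3 (adjusted p = 0.0655 and 0.062), and without FP isthmus array 3 its difference of 0.58 was under 1.5-fold. DSEL, near SERPINB8, rose in the FP isthmus (1.46) and was lost without FP heifer 3, LP heifer 2, FP isthmus array 3 or LP isthmus array 2 (adjusted p = 0.0503 to 0.084). The fourth was LOC522479.

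Of 16 measured serpins of other clades, 2 rose and none fell in the FP of each tissue, and the other 14 did not pass. The shares of all probesets called were 7.82% in the ampulla and 8.44% in the isthmus. SERPINH1, the collagen chaperone of the endoplasmic reticulum, rose in the FP by 1.75 in the ampulla (SE 0.13, limma adjusted p = 3.41e-05) and 1.73 in the isthmus (SE 0.13, limma adjusted p = 6.51e-05). SERPINE3, a relative of plasminogen activator inhibitor 1, rose by 2.85 (SE 0.33, limma adjusted p = 0.000401) and 1.44 (SE 0.33, limma adjusted p = 0.0136). The isthmus call of SERPINE3 was lost without FP heifer 3 or LP heifer 2 (adjusted p = 0.0717 and 0.055) or without FP isthmus array 3 (adjusted p = 0.0522).

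Of 14 serine protease inhibitors that are not serpins, 1 fell in the ampulla and 2 fell in the isthmus, where 7.82% and 8.44% of all probesets were called. TFPI, the Kunitz-type inhibitor of the coagulation pathway, fell in the FP isthmus (-1.55, SE 0.39, limma adjusted p = 0.0201) and was 4.05 higher in the isthmus than in the ampulla of the LP (limma adjusted p = 0.000138). Its highest group mean was in the LP isthmus (10.12) and its lowest in the LP ampulla (6.06). Its phase call was lost without FP heifer 3, LP heifer 2 or LP heifer 3 or their isthmus arrays (adjusted p = 0.0541 to 0.0956). A2M, the broad plasma protease inhibitor, fell in the ampulla (-0.95), a call lost without FP heifer 3 or LP heifer 1 (adjusted p = 0.0506 and 0.0514), and SPINK5, a Kazal-type inhibitor of kallikreins, in the isthmus (-0.84), where it passed in 6 of the 18 fits with a heifer or array left out. Of 5 cystatins and calpastatin, limma called 0 in either tissue, with 1 in the ampulla and 0 in the isthmus at an unadjusted p under 0.05. That gene was CAST (calpastatin), with a difference of -0.37 (limma adjusted p = 0.0257), which is under 1.5-fold.

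The proteases that clade B serpins are known to meet were counted by class, beside the same 7.82% (ampulla) and 8.44% (isthmus) of all probesets. Of 7 leukocyte granule proteases, limma called 0 in either tissue, with 3 in the ampulla and 1 in the isthmus at an unadjusted p under 0.05. ELANE, the neutrophil elastase blocked by SERPINB1, was at group means of 5.41 to 5.52, under the lower quartile of the arrays. GZMB, the target of SERPINB9, was at group means of 6.81 to 7.18. In plasminogen activation, 1 of 5 genes passed: PLAU, the urokinase that SERPINB2 inhibits, rose in the FP isthmus by 1.15 (SE 0.21, limma adjusted p = 0.00484) and differed by -1.51 between the isthmus and the ampulla of the LP. PLAU was thus lowest in the LP isthmus, at 7.90 against 9.05 to 9.40 in the other groups. PLG, plasminogen itself, was at 4.52 to 4.68.

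Among 15 serine proteases of epithelia, most of them trypsin-like as are the targets of SERPINB12 (FURIN and the chymotrypsin-like KLK7 are not), limma called 0 in the ampulla, with 1 at an unadjusted p under 0.05, and 1 in the isthmus. That gene, the kallikrein KLK10, fell (-0.98, SE 0.30, limma adjusted p = 0.0495) and passed in 4 of the 18 fits with a heifer or array left out. In the LP, 3 of the 15 were higher in the isthmus (ST14, PRSS8 and HPN, known as matriptase, prostasin and hepsin), and none was lower. Of all probesets, 6.99% were called between the tissues of the LP in either direction. Of 11 lysosomal cathepsins, 2 fell in the ampulla, and 1 rose and 1 fell in the isthmus. CTSF fell in both tissues (-0.76 and -0.86, limma adjusted p = 0.00121 and 0.000655) and CTSV rose in the isthmus (0.84, limma adjusted p = 0.00339). CTSS, a cathepsin of antigen presenting cells, fell in the ampulla (-0.60), where its fold was under 1.5 without FP heifer 3 or LP heifer 3 or their ampulla arrays (-0.58 and -0.48). Of 5 caspases limma called 0, with 4 in the ampulla and 2 in the isthmus at an unadjusted p under 0.05. Among these, CASP6 was higher in the FP of both tissues by 0.56 and 0.46 (limma adjusted p = 0.0108 and 0.0253), which is under 1.5-fold.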

How the data were processed

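Total RNA of 12 epithelial samples had been hybridized to Affymetrix Bovine Gene 1.0 ST arrays. The deposited values are log2 signals per probeset, normalized by the authors with RMA, and the submitters' processing notes name GCOS 1.2 and Partek 6.4. Genes were named through the platform annotation (18457 probesets with 1 symbol, 688 with several and 7628 with none), and positions are from RefSeq on ARS-UCD2.0. All 26773 probesets were fitted in limma 3.58.1 (R 4.3.3) with 4 group means, and p-values were adjusted by Benjamini-Hochberg over all probesets. Differentially expressed genes (DEGs) were those that changed by 1.5-fold or more at an adjusted p under 0.05 (no minimum for the difference of phase effects). A gene with an adjusted p under 0.05 but a smaller change was thus not called. The fit was tested on simulated data with independent errors on each array, so that test does not cover the pairing of tissues within a heifer. The F-test with LSD contrasts of the study's methods was run as an alternative, beside others given in the closing section. The study used it for pairwise comparisons, and its use for the difference of phase effects was added here.

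The members, the gene lists and the tests were chosen with earlier results of these data known. Named genes were the members, the other clade B serpins, up to 3 protein-coding neighbors on each side of a member, the 5 genes most like SERPINB12 and 2 most like each other member, and up to 4 called genes of a list (2 where none was called). Likeness was ranked only among single-symbol genes whose mean signal was above the lower quartile of all probesets. SERPINB12 was described without a test. Each heifer gave both tissues by the labels, so heifer was also run as a block. Blocks and left-out heifers were set by the animal numbers of the labels. Same-heifer deviations correlated at 0.22 to 0.37 in the LP and -0.17 to -0.05 in the FP, where other pairings reached 0.24. No FP sample was re-paired. Arrays give no read depth, and 3 samples per group limit the precision.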

Additional observations from a re-analysis of the deposited data

Results flagged for a closer look

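The phase effect of LOC522479 differed between the tissues by -3.21 on the log2 scale (isthmus minus ampulla, SE 0.47, limma adjusted p = 0.0349 for the difference itself). It was lower in the FP than in the LP isthmus in all 3 arrays, while the 3 FP ampulla arrays were above the 3 LP ampulla arrays. The call was lost in 15 of the 18 fits with a heifer or array left out (adjusted p = 0.0658 to 0.178).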

How the results depend on the processing

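The precision is limited by 3 heifers per phase, and low signals such as those of SERPINB2 and SERPINB9 lie near the lower quartile of the arrays. With no minimum fold, 4414 probesets differed between the phases in the ampulla, 4573 in the isthmus and 3282 between the tissues of the LP, and SERPINB5 was then the 1 member called in the ampulla and in the LP tissues. The F-test with LSD contrasts called 1013 probesets between the tissues of the FP and 1831 for the difference of phase effects, with SERPINB5 as 1 member. In that method only the p of the F-test over the groups is adjusted. The contrast passes at an unadjusted p under 0.05, with no minimum fold for the difference of phase effects. For that difference, the fixed replicate block gave 19, the random replicate block 59 and a variance trend 74, and no block changed the members called. With a heifer or array left out, the counts were 1483 to 2149 (ampulla), 1764 to 2266 (isthmus), 0 to 210 (difference of phase effects), 1067 to 2032 (LP tissues) and 113 to 701 (FP tissues), with 0 to 1 members in the LP tissues. Differences that passed no test turned sign in these fits: SERPINB1 between phases of the isthmus (-0.26 to 0.045) and FP tissues (-0.13 to 0.14, and -0.017 after centering), SERPINB2 in the isthmus (-0.99 to 0.27) and LP tissues (-0.091 to 1.17), SERPINB6 in the FP tissues (-0.15 to 0.15), SERPINB9 in the ampulla (-0.20 to 0.047) and isthmus (-0.040 to 0.085), and SERPINB7 in the ampulla (-0.15 to 1.09). The causes were not tested.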

Other observations

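The marker lists without a count above gave these numbers of DEGs between the phases (FP against LP). Beside them, 7.82% of all probesets were called in the ampulla and 8.44% in the isthmus. Of 11 markers of macrophages and dendritic cells, 6 fell in the ampulla and 4 in the isthmus, and none rose. Of 8 neutrophil markers, 1 fell in the ampulla and limma called 0 in the isthmus, where 2 had an unadjusted p under 0.05. Of 8 steroid hormone targets, 2 rose and 2 fell in the ampulla, and 2 rose and 4 fell in the isthmus. Of 9 epithelial markers, 1 rose in the ampulla, and 2 rose and 2 fell in the isthmus. Of 9 markers of ciliated cells, 1 fell in the ampulla and limma called 0 in the isthmus, where 4 had an unadjusted p under 0.05. Among these 4, DNAH9 differed by -0.44 (limma adjusted p = 0.0225), which is under 1.5-fold.

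Of 5 markers of oviduct secretory cells, limma called 0 in the ampulla, where 2 had an unadjusted p under 0.05, and in the isthmus the transcription factor PAX2 fell (-0.59, SE 0.13, limma adjusted p = 0.0102). In the ampulla PAX8 differed by -0.43 (limma adjusted p = 0.0355) and missed only the minimum fold. Among the fibroblast and smooth muscle markers limma called 0 in the ampulla, where 0 had an unadjusted p under 0.05. Limma called 0 in both tissues for the 7 endothelial markers (3 in the ampulla and 1 in the isthmus at an unadjusted p under 0.05), the 6 markers of B and plasma cells (4 and 1) and the 4 erythrocyte markers (1 and 2).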
